A study of Oryza sativa with 24 samples.

Results

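Proteins that enter the endoplasmic reticulum (ER) of a filling rice seed are folded there before they are laid down in protein bodies and storage vacuoles, and the genes described here encode chaperones and oxidoreductases of that compartment with 1 of their regulators. BiP is the Hsp70 chaperone of the ER lumen, which binds unfolded chains. Protein disulfide isomerases (PDIL) form and rearrange disulfide bonds, and Ero1 passes the electrons on to oxygen and so keeps them oxidised. Calnexin, in the membrane, and calreticulin, in the lumen, hold newly made glycoproteins by their sugar chains. bZIP50 is a transcription factor of the unfolded protein response, whose mRNA is spliced by the sensor IRE1 when unfolded protein builds up. In rice endosperm, glutelins and alpha-globulin pass through this compartment to storage vacuoles, whereas prolamins stay in bodies derived from the ER.

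The 10 genes were taken by their gene IDs from a fixed list, with no threshold on their values: BiP1 (OS02G0115900), BiP2 (OS03G0710500), BiP4 (OS05G0428600), BiP5 (OS08G0197700), PDIL1-1 (OS11G0199200), PDIL2-3 (OS09G0451500), calnexin (OS04G0402100), a calreticulin (OS07G0246200), Ero1 (OS03G0733800) and bZIP50 (OS06G0622700). The list was chosen with earlier results of these data known. Of 17780 genes in any table, 7 of the 10 had a row, in both tissues. BiP2, BiP4 and BiP5 had no row in the tables used here, so BiP1 is the only BiP gene described below. The names were given with the list but not beside each ID, and were paired with the IDs by their order. A RefSeq gene table of another assembly held 7 of the 10 names, each on the chromosome written in the ID, but paired none of the IDs with a name. It held no entry for the names BiP5, calnexin and Ero1.

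Embryo and endosperm of 2 field-grown, wild-type japonica accessions were compared, Gopum, which sprouts readily on the panicle, and Jowoon, which resists sprouting. Stages are counted in days after heading (DAH), and seeds of 30, 45 and 60 DAH were used. The labels list 24 RNA-seq libraries, 2 for each of the 12 groups of accession, tissue and stage, each from pooled tissue of several plants. The accession comparisons are called GJ30, GJ45 and GJ60 in each tissue. The deposited tables give, for each gene and comparison, the log2 fold change, p-value and false discovery rate (FDR) of the authors' edgeR test, and 1 mean log2 CPM per tissue, where CPM is the read count scaled to library size. Positive values mean more RNA in Jowoon, a reading settled from genes whose direction the study names, of which 12 of 13 had the fitting sign. A differentially expressed gene (DEG) had a fold change of at least 2 and an FDR of at most 0.05.

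Values of single libraries were not analysed here, so the depth, the spread between libraries and the level in each accession are unknown. The error given below is an implied standard error (SE), obtained by dividing each absolute log2 fold change by the normal quantile that its p-value corresponds to, and intervals are 95% intervals made from it. Nothing in the labels says that the libraries of a group came from separate plants, so the p-values measure only the spread between these libraries. A difference in the share of a cell type and a difference in RNA per cell cannot be told apart in such tissue.

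There were 16897 genes in each embryo table, 14049 in each endosperm table and 13166 in both tissues. Endosperm GJ30 stood apart: it held no DEG, its lowest FDR was 0.120, and 2.50% of its genes had an unadjusted p under 0.05. Of 219 genes called in the same direction at all embryo stages, 40.6% had the embryo's sign in endosperm GJ30, against 85.8% in endosperm GJ45 and 78.5% in endosperm GJ60. No call below rests on endosperm GJ30, and each stage difference that uses it is named. Tissue identity was read from markers listed by ID. The endosperm tables listed 5 of 5 endosperm markers whereas the embryo tables had 3 of 5, without Waxy and Brittle1. The glutelin OS10G0400200 had a mean log2 CPM of 15.99 in endosperm and 8.39 in embryo. The endosperm tables listed 3 of 4 embryo markers, and both oleosins had nearly the same mean log2 CPM in embryo (10.91 and 9.95) as in endosperm (10.28 and 9.89).

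The genes of this folding system did not share 1 direction of difference between the accessions. In the embryo, bZIP50 (3.19-fold) and calreticulin (2.85-fold) were higher in Jowoon at 60 DAH, and Ero1 (2.16-fold) was lower in Jowoon at 45 DAH. BiP1 in embryo lay on the Gopum side at 30 DAH and on the Jowoon side at 60 DAH. The difference between those stages passed the test. Its signs were the same in endosperm, but the 30 DAH value there came from endosperm GJ30, which stood apart. The endosperm interval ran from -2.84 to 0.81 at 30 DAH and from -0.11 to 3.62 at 60 DAH. In the endosperm no member was called at any stage. Counts of calls were 0, 1 and 2 of 7 in embryo GJ30, GJ45 and GJ60, beside 17.6%, 21.5% and 35.3% of all genes, no larger a share than among all genes of the embryo. In endosperm GJ30, GJ45 and GJ60, 0 of 7 were called each time, beside 0%, 1.61% and 1.53% of all genes. At an unadjusted p under 0.05, 4, 3 and 4 of 7 members passed the authors' edgeR test in embryo GJ30, GJ45 and GJ60, beside 31.8%, 37.0% and 47.9% of all genes. In endosperm 0, 1 and 3 of 7 passed, beside 2.50%, 11.4% and 8.73%.

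**Figure D1:**
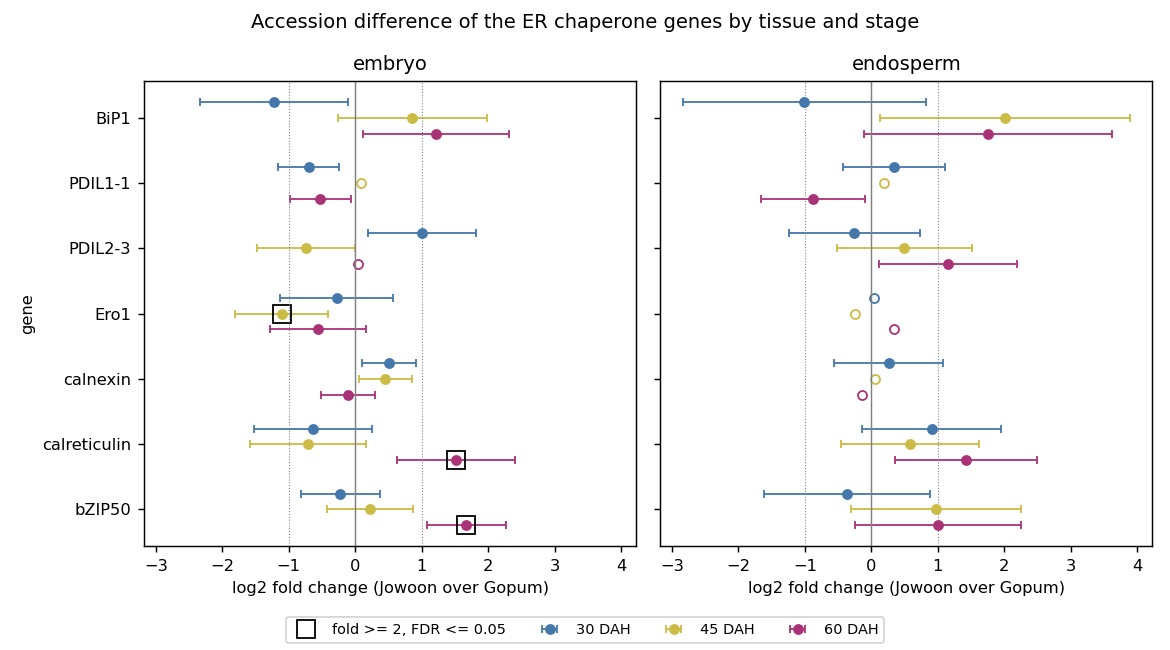
Log2 fold change (Jowoon over Gopum, horizontal axis) of the 7 measured genes (vertical axis) at 30, 45 and 60 DAH in embryo (left) and endosperm (right). Filled points carry the 95% interval from the implied SE, open points have a p-value too near 1 for an SE of their own, boxes mark DEGs, and dotted lines mark a fold change of 2. The boxed points are Ero1 at 45 DAH (-1.11) and calreticulin (1.51) and bZIP50 (1.67) at 60 DAH, all in embryo.

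Of the Hsp70 chaperones, BiP1 is the member measured. BiP1 is the BiP gene that rice endosperm is known to use most during normal seed filling. In embryo its log2 fold change was -1.23 at GJ30 (SE 0.57, interval -2.34 to -0.11, FDR 0.111), 0.86 at GJ45 (SE 0.57, interval -0.26 to 1.98, FDR 0.273) and 1.21 at GJ60 (SE 0.56, interval 0.12 to 2.31, FDR 0.0688). In endosperm it was -1.01 at GJ30 (SE 0.93, interval -2.84 to 0.81, FDR 1). The endosperm value was 2.01 at GJ45 (SE 0.96, interval 0.13 to 3.89, FDR 0.388). At GJ60 it was 1.76 (SE 0.95, interval -0.11 to 3.62, FDR 0.623). The sign was thus negative at the first stage and positive at both later stages in each tissue, although no single value was called. For endosperm the negative sign rests on GJ30 alone, the comparison that stood apart above. Whether the libraries behind it carry the right accession label was not tested. An exchange of all these labels would turn the sign, and the effect of a partial exchange is not known. Without that comparison both endosperm values of BiP1 were positive. The endosperm value at GJ45, a 4.03-fold difference, was the largest among the members in any table, and its SE was also among the largest. It lay at the 95.4th percentile of all genes of that table, and the GJ60 value at the 96.6th. In the same endosperm GJ45 table, 2 of 5 endosperm markers were called lower in Jowoon (range -1.85 to 1.59, median -1.20), and the 3 listed embryo markers ran from 0.66 to 1.63 with none called. At endosperm GJ60 no marker was called, and the endosperm markers ran from -0.93 to 1.68. The part of these markers in the endosperm values of BiP1 was not tested.

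PDIL1-1, the major protein disulfide isomerase of rice endosperm and the enzyme lost in the rice esp2 mutants that accumulate glutelin precursor, was lower in Jowoon embryo at GJ30 by the FDR alone. Its log2 fold change there was -0.70 (SE 0.23, FDR 0.0182), a 1.62-fold difference, and it was therefore not a DEG. At an FDR of at most 0.05 with any fold, 20.8% of all genes passed. The embryo value was 0.09 at GJ45 (FDR 0.828) and -0.52 at GJ60 (SE 0.23, FDR 0.0586). In endosperm the values were 0.34 at GJ30 (SE 0.39, FDR 1), 0.19 at GJ45 (FDR 0.950) and -0.88 at GJ60 (SE 0.40, FDR 0.463, unadjusted p 0.0283).

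PDIL2-3, an isomerase that rice is known to place at the surface of the prolamin-containing bodies, had a log2 fold change of 1.003 at embryo GJ30 (SE 0.41, FDR 0.0668), -0.74 at embryo GJ45 (SE 0.37, FDR 0.132) and 0.04 at embryo GJ60 (FDR 0.989). In endosperm it was -0.26 at GJ30 (SE 0.51, FDR 1), 0.50 at GJ45 (SE 0.52, FDR 0.803) and 1.15 at GJ60 (SE 0.53, FDR 0.472, unadjusted p 0.0303). In embryo, PDIL1-1 and PDIL2-3 had opposite signs at each stage. However, PDIL1-1 at GJ45 (0.09) and PDIL2-3 at GJ60 (0.04) lay too near 0 for their signs to be settled. In endosperm the signs were opposite at GJ30, the comparison that stood apart, and at GJ60. No test compared the pair.

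Ero1 was the 1 member called in embryo GJ45, where 10.6% of all genes were called lower in Jowoon. The log2 fold change was -1.11 (SE 0.36, interval -1.81 to -0.40, FDR 0.0132). At GJ30 and GJ60 it was also negative in embryo, with values of -0.28 (SE 0.43, FDR 0.723) and -0.56 (SE 0.37, FDR 0.222). Each of its endosperm values, 0.03, -0.25 and 0.34 at the 3 stages, had a p-value too near 1 for an SE of its own.

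Of the lectin chaperones among the members, 1 was called in embryo, and no test compared the pair. Calreticulin was called higher in Jowoon at GJ60, with a log2 fold change of 1.51 (SE 0.45, interval 0.62 to 2.398, FDR 0.00350), after negative values of -0.64 at GJ30 (SE 0.45, FDR 0.341) and -0.71 at GJ45 (SE 0.45, FDR 0.240). Calnexin was 0.51 at GJ30 (SE 0.21, FDR 0.0617), 0.45 at GJ45 (SE 0.20, FDR 0.0878) and -0.11 at GJ60 (SE 0.21, FDR 0.706), and its GJ60 value became 0.04 when the median of all genes was taken as 0. In endosperm calreticulin was positive at each stage, with 0.91 at GJ30 (SE 0.53, FDR 1), 0.58 at GJ45 (SE 0.53, FDR 0.758) and 1.43 at GJ60 (SE 0.54, FDR 0.260). The last had an unadjusted p of 0.00861, the lowest of any member in endosperm. The endosperm values of calnexin were 0.26, 0.05 and -0.14.

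The regulator bZIP50 had the lowest FDR of all members. In embryo its log2 fold change was -0.23 at GJ30 (SE 0.30, FDR 0.672), 0.22 at GJ45 (SE 0.33, FDR 0.673) and 1.67 at GJ60 (SE 0.31, interval 1.07 to 2.27, FDR 7.38e-07). At GJ60, 15.5% of all genes were called higher in Jowoon, and bZIP50 lay at the 91st percentile of the log2 fold changes there. In endosperm it was -0.36 at GJ30 (SE 0.64, FDR 1), 0.97 at GJ45 (SE 0.65, FDR 0.602) and 0.998 at GJ60 (SE 0.64, FDR 0.735). The values are per gene and do not separate the spliced from the unspliced mRNA.

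Set against all genes, the members' median log2 fold change in embryo was -0.28 at GJ30 (all genes -0.05), 0.09 at GJ45 (all genes -0.03) and 0.04 at GJ60 (all genes -0.15). The shift of -0.15 at embryo GJ60 means that values relative to the median gene are higher there: 1.83 for bZIP50, 1.66 for calreticulin and 1.37 for BiP1. In endosperm the members' median was 0.03 at GJ30 (all genes -0.05), 0.50 at GJ45 (all genes 0.07) and 0.998 at GJ60 (all genes 0.08). In endosperm GJ30, GJ45 and GJ60, 1, 1 and 3 of 7 members differed at least 2-fold, beside 9.78%, 25.3% and 18.3% of all genes. In embryo 2, 1 and 3 of 7 did so, beside 28.7%, 31.7% and 43.6%. These medians are a description of 7 genes.

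**Figure D2:**
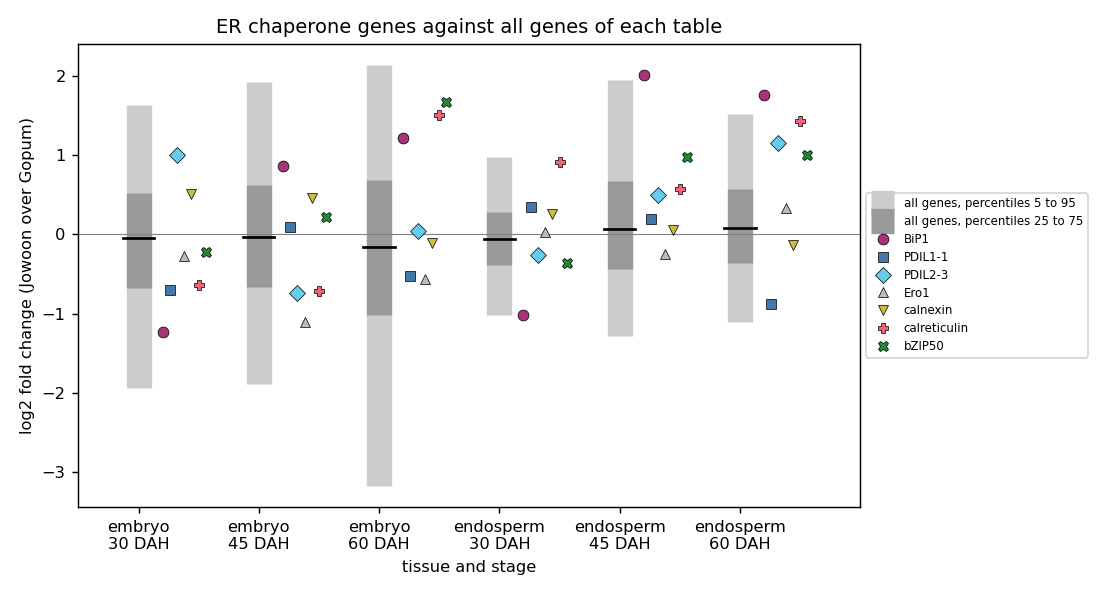
Log2 fold change of each of the 7 genes (symbols) beside the distribution over all genes of the same table (grey bars for percentiles 5 to 95 and 25 to 75, black line for the median) for each tissue and stage. In endosperm at 45 and 60 DAH, BiP1 (2.01 and 1.76) lies above the bar that ends at the 95th percentile, and in embryo at 60 DAH calreticulin (1.51) and bZIP50 (1.67) lie within it.

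Whether the accession difference of a gene changed between stages was tested within each tissue, as the later minus the earlier log2 fold change over the combined implied SE, with Benjamini-Hochberg adjustment over all genes of the tissue. Of 42 tests on the members, 6 passed at an adjusted p of 0.05, all in embryo and for 4 of the 7 genes. From 30 to 60 DAH, 3 of 7 members shifted towards Jowoon, beside 30.7% of all genes that shifted either way and 14% that shifted towards Jowoon. From 45 to 60 DAH, 2 of 7 did so, beside 34.2% and 15%. From 30 to 45 DAH, 1 of 7 shifted, towards Gopum, beside 4.57% of all genes that shifted either way and 1.27% that shifted towards Gopum.

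BiP1 moved from the Gopum to the Jowoon side between 30 and 60 DAH in embryo, by 2.44 on the log2 scale (SE 0.80, interval 0.88 to 3.998, adjusted p 0.0107). The step from 30 to 45 DAH was 2.09 (SE 0.81, adjusted p 0.114), and that from 45 to 60 DAH was 0.35 (SE 0.80, adjusted p 0.774). For calreticulin the difference was -0.07 from 30 to 45 DAH (SE 0.64, adjusted p 0.966) and 2.22 from 45 to 60 DAH (SE 0.64, adjusted p 0.00274). From 30 to 60 DAH it was 2.15 (SE 0.64, adjusted p 0.00461). bZIP50 had values of 1.45 from 45 to 60 DAH (SE 0.45, adjusted p 0.00581) and 1.90 from 30 to 60 DAH (SE 0.43, adjusted p 0.000127). PDIL2-3 moved the other way, by -1.74 from 30 to 45 DAH (SE 0.56, adjusted p 0.0428), and this call was lost with a t quantile on 12 degrees of freedom (adjusted p 0.0576). The 12 is a chosen setting, and the degrees of freedom behind the authors' p-values are not known.

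PDIL1-1, calnexin and Ero1 passed no test between embryo stages. In endosperm 0 of 21 tests passed, beside 0.762% of all genes from 30 to 45 DAH, 0.441% from 30 to 60 DAH and 0.0498% from 45 to 60 DAH. At an unadjusted p under 0.05, 1, 2 and 0 of 7 members passed there, each against endosperm GJ30, beside 9.27%, 4.88% and 5.26% of all genes. The BiP1 difference in endosperm was larger than in embryo but had a wider error, at 3.02 from 30 to 45 DAH (SE 1.34, adjusted p 0.443) and 2.77 from 30 to 60 DAH (SE 1.33, adjusted p 0.954). Both use endosperm GJ30, and without that table the remaining difference, from 45 to 60 DAH, was -0.25 (SE 1.35, adjusted p 0.997). The tissues were scaled separately, and no test was run between them.

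The mean level of each gene was compared between tissues, as 1 value per gene and tissue over both accessions and all stages, with no error and no test. Among genes in both tissues, 89.1% had a higher mean log2 CPM in embryo, and the median difference was 1.32. The 10 most abundant genes held 43.5% of the summed CPM in endosperm and 11.1% in embryo. Against this, BiP1 was 2.62-fold higher in endosperm, with a mean log2 CPM of 5.90 there and 4.50 in embryo, and its difference of -1.39 lay at percentile 3.16 of the shared genes. PDIL2-3 was the other member higher in endosperm, at 4.07 against 3.71.

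Calreticulin lay at the embryo end, with a mean log2 CPM of 7.98 in embryo and 5.38 in endosperm, a 6.05-fold difference at percentile 96.3. Calnexin (8.54 and 6.84) and PDIL1-1 (9.30 and 7.59) were both higher in embryo, by 1.70 and 1.71. Ero1 (4.95 and 4.70) and bZIP50 (5.79 and 5.37) were slightly higher in embryo as deposited, but became lower there, by -1.07 and -0.91, when the median difference of all shared genes was subtracted. The same subtraction left 1.28 for calreticulin, 0.38 for calnexin and 0.39 for PDIL1-1, and gave -2.71 for BiP1 and -1.68 for PDIL2-3. On that scale 3 of 7 members stayed higher in embryo, against 5 of 7 as deposited. Gene lengths were not used here, so levels of different genes were not ranked.

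**Figure D3:**
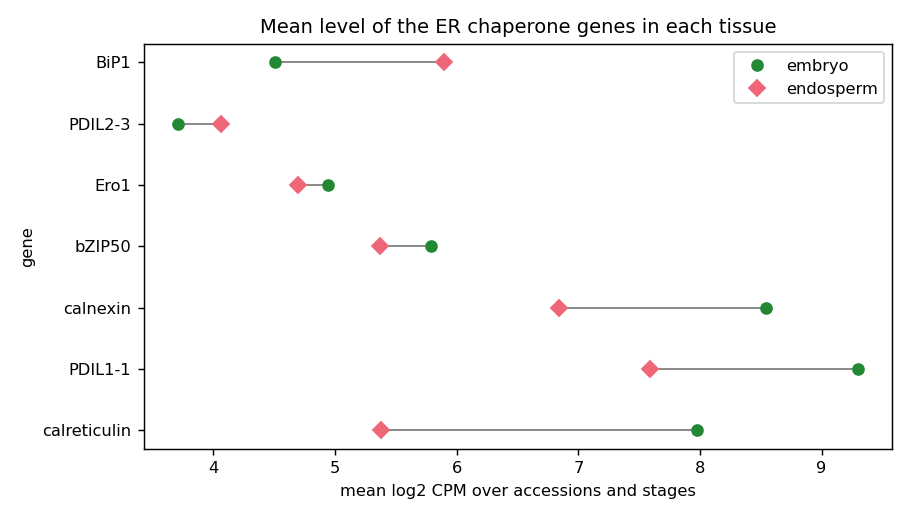
Mean log2 CPM (horizontal axis) of each of the 7 genes (vertical axis) in embryo and endosperm, with a line joining the values of a gene. BiP1 (4.50 and 5.90) and PDIL2-3 (3.71 and 4.07) have the endosperm value to the right, and calreticulin (7.98 and 5.38) has the longest line, with the embryo value to the right. Ero1 and bZIP50 turn towards endosperm when the median difference of all genes is subtracted.

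The genes whose 6 log2 fold changes were most like those of BiP1 were found by Euclidean distance among 6890 genes whose mean log2 CPM reached 3 in both tissues, with a median distance of 3.73. The values share their libraries within each table, and the likeness is given as a description. The nearest was OS05G0499100 on chromosome 5, listed by ID among the endosperm markers as alpha-globulin, at a distance of 0.69. Its log2 fold changes were -1.41, 1.16 and 1.06 in embryo and -0.63, 1.59 and 1.68 in endosperm, at GJ30, GJ45 and GJ60. It was a DEG in embryo GJ30 only (FDR 0.0452). Next came OS05G0466600, at 0.73, and OS01G0303800, at 1.22. OS05G0466600 was called higher in Jowoon embryo at GJ45 (1.44, FDR 0.0367) and GJ60 (1.37, FDR 0.0304). Among the members, bZIP50 was nearest to BiP1, with a distance of 1.92 and rank 96, followed by calreticulin with 2.96 and rank 1109. Ero1 was the farthest, with 4.02 and rank 4435.

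Alpha-globulin had a mean log2 CPM of 11.17 in endosperm and 4.03 in embryo. In endosperm Brittle1 had the same signs as alpha-globulin, with -0.58, 0.05 and 1.23 at GJ30, GJ45 and GJ60. No endosperm value of either gene was called. Branching enzyme IIb, the glutelin and Waxy had the opposite sign to alpha-globulin at endosperm GJ45 and GJ60. At endosperm GJ45, branching enzyme IIb (-1.85, FDR 0.0132) and the glutelin (-1.46, FDR 0.0261) were called lower in Jowoon, and Waxy stood at -1.20 (FDR 0.173) and Brittle1 at 0.05 (FDR 1). Of the 3 endosperm markers listed in the embryo tables, 0 were called higher and 1 lower at GJ30, 0 either way at GJ45, and 1 higher at GJ60. Their log2 fold changes ran from -1.41 to -0.59 at GJ30, from -0.79 to 1.16 at GJ45 and from -0.42 to 1.13 at GJ60. The most abundant of them, the glutelin, stood at -1.09, -0.38 and -0.42. The log2 of their summed CPM was 8.60 in embryo, 1 value over all groups, against 16.07 for the 5 markers in endosperm. The part of these markers in the embryo values of BiP1 was not tested. The embryo markers were called 0 higher and 1 lower at embryo GJ30 and 2 higher and 0 lower at both later stages, of 4 listed.

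**Figure D4:**
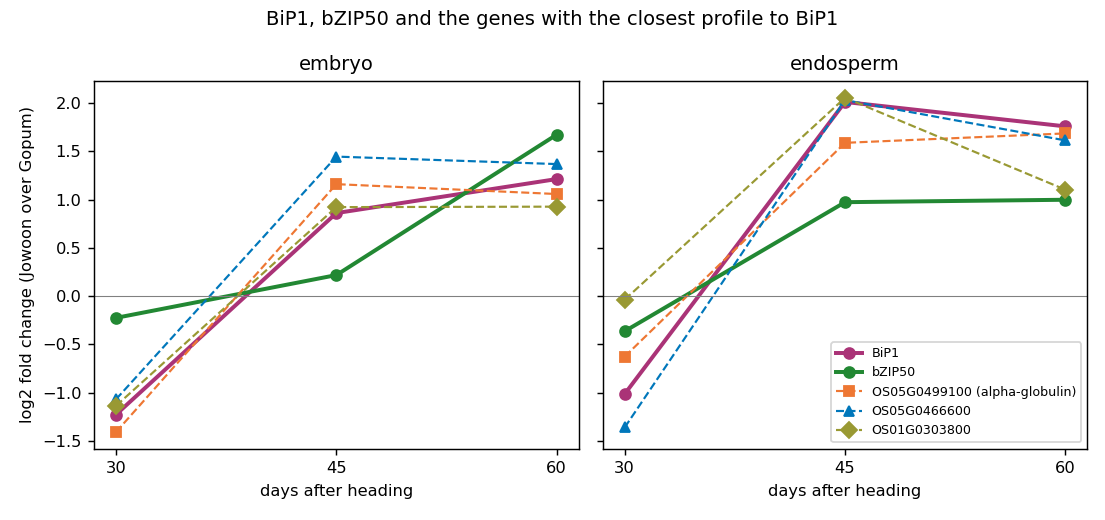
Log2 fold change (Jowoon over Gopum, vertical axis) against days after heading for BiP1, bZIP50 and the 3 genes nearest to BiP1, in embryo (left) and endosperm (right). BiP1 and the 3 nearest genes are below 0 at 30 DAH and above 0 at 45 and 60 DAH in both tissues. The 3 were chosen for their likeness to BiP1 in these same values, so the shared signs are no separate result. OS01G0303800 is only at -0.04 in endosperm at 30 DAH. bZIP50 lies nearer to 0 than BiP1 at 30 and 45 DAH.

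A list of 17 other genes of ER folding, set down by ID from general knowledge, was counted beside the members. No source used here annotates these IDs, so they are given without names. Of the 14 measured in embryo, 1 was called higher and 1 lower at GJ30 (8.3% and 9.34% of all genes), 1 higher and 0 lower at GJ45 (10.9% and 10.6%), and 0 higher and 6 lower at GJ60 (15.5% and 19.8%). The list's median log2 fold change was 0.07, 0.04 and -0.92 at these stages. The list was split into groups on the same general knowledge. In its largest group, oxidative folding, 4 of 9 measured genes were called lower at GJ60 and 0 higher. Of its unfolded protein sensors, 1 of 3 was called lower at embryo GJ60 and 0 higher. The 1 measured gene of its lectin chaperone group was called lower at embryo GJ30 and GJ60. In endosperm 0 of 13 were called at any stage, beside 0%, 1.61% and 1.53% of all genes at GJ30, GJ45 and GJ60. The list's medians there were -0.18, 0.05 and -0.16. The 1 measured gene of its ER Hsp70 group stood at 0.66 at embryo GJ60, on the other side of 0 from the list's median, but was not called.

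The listed gene OS02G0550300 was higher in Jowoon embryo at GJ30 (log2 fold change 1.94, FDR 8.72e-04) and GJ45 (1.82, FDR 0.00101) and stood at 0.04 at GJ60. OS03G0832200, the measured gene of the list's lectin chaperone group, was lower at GJ30 (-2.24, FDR 0.0196) and at GJ60 (-1.79, FDR 0.00294). The member calreticulin stood on the other side of 0 at embryo GJ60 (1.51). The 3 listed genes with the lowest FDR at embryo GJ60 were OS01G0339900 (-6.39, FDR 1.54e-14), OS02G0100100 (-1.83, FDR 4.40e-07) and OS07G0524100 (-1.70, FDR 7.49e-07), all lower in Jowoon. How far the size of the first depends on how the fit treats very low counts is not known from the tables.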

How the data were processed

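As the study's methods state, reads were trimmed (Trimmomatic), aligned to the IRGSP rice genome (HISAT2), counted per gene (featureCounts) and scaled by TMM normalisation. The authors compared the accessions with edgeR. The methods mention more libraries per group than the 2 labelled. The deposited tables hold only the authors' own comparisons: log2 fold changes, a mean log2 CPM that is identical in the 3 tables of a tissue, p-values and FDR values. The FDR equalled the Benjamini-Hochberg adjustment of the deposited p-values over the whole table. These columns were used because the genes are described by them. No count test could be run.

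Implied SEs needed a normal quantile of at least 0.5. Otherwise the stage test used the median SE of the gene in the other tables of the tissue, or of all genes. Python 3.11.15, numpy 2.4.6, pandas 2.3.3 and scipy 1.17.1 were used. Members, gene lists and tests were chosen with earlier results of these data known. The text names all members, up to 3 called genes of lowest FDR per table from the folding list, and the 3 genes nearest to BiP1. OS03G0832200 at GJ60 is added to its GJ30 value. Of 17780 IDs, 0 matched the RefSeq table (assembly ASM3414082v1). Levels per coding length and sequences were planned but are not given, since the reference used here holds neither.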

Additional observations from a re-analysis of the deposited data

Results flagged for a closer look

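Each result here is a gene whose accession difference changed between embryo stages by the test of that change. The value is the later minus the earlier log2 fold change (Jowoon over Gopum), with the p adjusted over all embryo genes. The difference of PDIL2-3 changed by -1.74 from 30 to 45 DAH (adjusted p 0.0428). BiP1 changed by 2.44 from 30 to 60 DAH (adjusted p 0.0107). Calreticulin changed by 2.15 from 30 to 60 DAH (adjusted p 0.00461) and by 2.22 from 45 to 60 DAH (adjusted p 0.00274). bZIP50 changed by 1.90 from 30 to 60 DAH (adjusted p 0.000127) and by 1.45 from 45 to 60 DAH (adjusted p 0.00581). From 30 to 60 DAH, 30.7% of all embryo genes changed by the same test.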

How the results depend on the processing

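Calls of each table were recomputed under 6 other settings and stage differences under 4. With a fold change of at least 4, the count of called members became 0 in embryo GJ45 and 0 in embryo GJ60. With no fold threshold it became 1 in embryo GJ30 (PDIL1-1), and at an FDR of 0.01 it became 0 in embryo GJ45. The count of stage differences from 30 to 45 DAH in embryo became 0 with a t quantile and 0 at an adjusted p of 0.01, a threshold that BiP1 from 30 to 60 DAH also missed (0.0107). Centred on the median gene, calnexin became 0.0433 at embryo GJ60 and -0.0183 at endosperm GJ45. The following alternatives were chosen after seeing the data. Centring turned the tissue differences of Ero1 (-1.07) and bZIP50 (-0.91). For the folding list, a fold change of at least 4 gave 1, 0 and 1 calls in embryo GJ30, GJ45 and GJ60, no fold threshold gave 4 and 2 in GJ30 and GJ45, an FDR of 0.01 gave 1 in GJ30, and adjustment over the 3 tables together gave 2 in GJ45. No paired analysis was possible because the tables hold no values per library, and for the same reason no replicate could be left out. Depth is unknown, so the absence of calls in endosperm does not show that the genes did not differ. The median SE there was 0.52 to 0.59, taken only over members with an SE of their own.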
